A study of Rattus norvegicus with 12 samples.

Results

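The effect of actinomycin D (ActD) on transcript levels was examined at the earliest harvest, 5 min, in hippocampal neurons cultured from Sprague Dawley rat embryos (embryonic day 18.5) and grown for 12 days. The comparison rested on the 4 arrays of 5 min, chosen by their labels from the 12 arrays of the series: Block+ActD and BiC/4AP+ActD against Block and BiC/4AP without ActD. All cultures were first held for 3 h in inhibitors of NMDA receptors, AMPA receptors and sodium channels (D-APV, CNQX and TTX). Block cultures stayed in these inhibitors, whereas BiC/4AP cultures were stimulated for 5 min with bicuculline, a blocker of GABA-A receptors, and 4-aminopyridine, a blocker of potassium channels. ActD was used at 25 uM and DMSO was its control. By the study's methods the drug was already present during the rinses and the pre-incubation that preceded the stimulus, so cells had been exposed to ActD for longer than 5 min when RNA was taken. Neurons were plated over a glial feeder layer, so the RNA came from both neurons and glia, and 3 coverslips were pooled per sample. Each combination was measured on 1 array, all with replicate number 3. The p-values therefore set the ActD difference against its variation between the Block and the BiC/4AP cultures, which may be technical. With so few arrays, limma estimated that variation mostly from other probes.

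ActD intercalates into DNA and stalls elongating RNA polymerases. Once synthesis stops, a transcript declines at its own rate of decay. The mRNAs of immediate early genes and of many signalling regulators are textbook examples of short-lived transcripts, and those of ribosomal and mitochondrial proteins of long-lived ones. In neurons the drug is widely used to separate changes in mRNA stability from changes in synthesis.

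Levels are given as background-corrected, normalized log2 intensities, and a difference is the level with ActD minus the level without it. It was formed within each stimulus, as a Block pair and a BiC/4AP pair that share no array, and averaged. The arrays were normalized to a common distribution, so lower and higher mean relative to the other transcripts of an array. Absolute amounts were not measured. Of the 10485 probes tested, 1041 were downregulated with ActD (9.93%) and 216 were upregulated (2.06%) at a limma adjusted p of 0.05. Counted as 1 probe per gene, 731 of 7402 genes were lower (9.88%) and 147 were higher (1.99%). All 1041 lower probes were lower in both pairs, as were 215 of the 216 higher probes higher in both. The share of calls that were lower, 82.8%, moved with the processing. It was 96.8% (1108 lower and 37 higher) when arrays were set to equal total intensity, and 59.9% (985 and 659) when they were set to equal medians. Here and below, the setting of equal total intensity also left out background correction, whereas that of equal medians kept it. The part of scaling alone in the former was not tested. How far the calls depended on a single array could not be tested with the spread of these 4 arrays. With 1 array left out, the ActD effect rested on 1 pair, which has no spread of its own. The fits that left out 1 array took their spread from the later harvests, so their calls are not comparable with those above. The median difference over probes was 0.0407 without the Block or the Block+ActD array and 0.0882 without the BiC/4AP or the BiC/4AP+ActD array.

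A second count asked for a difference of at least 1.5-fold in the same direction in both pairs. It held for 473 lower probes (4.51% of those tested, 334 of them named) and for 32 higher probes (0.305%, 19 named). At 2-fold the counts were 66 and 1. Only 4 and 3 probes passed 1.5-fold in opposite directions in the pairs. Differences were larger in the Block pair, with an SD over probes of 0.50 against 0.33 in the BiC/4AP pair, and 421 of the 473 lower probes differed more there. With equal total intensity the counts became 325 and 1, so the size of the higher set depended on the processing. The arrays with ActD also had the lower total intensities, 12643100 and 12672000 against 13333700 and 13824800 without it, and fewer probes detected, 9751 and 10001 against 10484 and 10468. The part of these in the result was not tested.

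**Figure D1:**
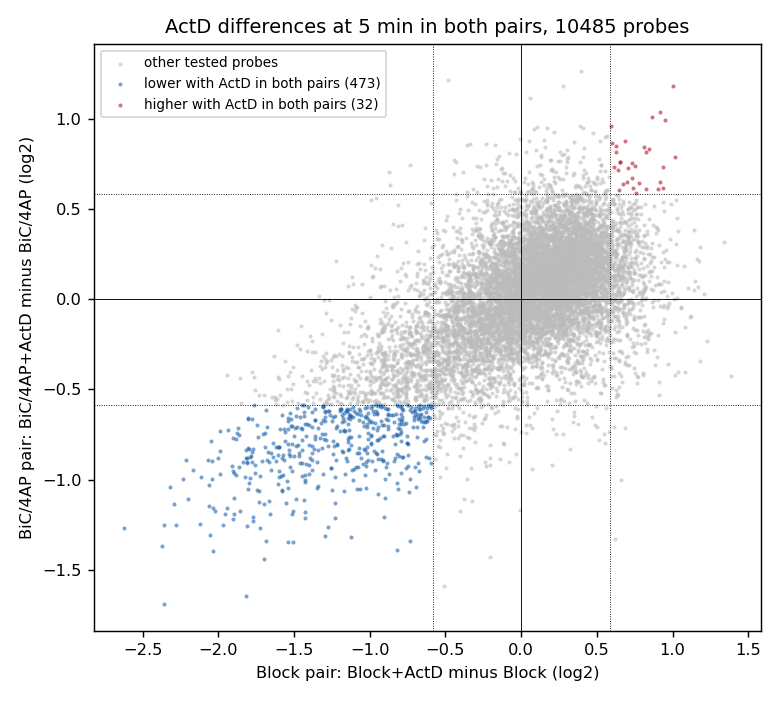
ActD differences (log2) of 10485 probes at 5 min, with the Block pair on the horizontal and the BiC/4AP pair on the vertical axis; each point is a probe and dotted lines mark 1.5-fold. The 473 probes lower in both pairs (blue) far outnumber the 32 higher in both (red), and they stretch further along the axis of the Block pair.

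Of the 12 transcripts lowest with ActD, 0 belonged to the lists of immediate early genes or short-lived regulators. These lists held only 26 and 38 of the 7402 tested genes, so a count of 0 among 12 says little about them. Cp, which encodes ceruloplasmin, a copper-carrying ferroxidase, stood at 10.27 on the Block array and 10.44 on the BiC/4AP array, against 8.45 and 8.80 with ActD. Its log2 difference was -1.73 ± 0.14 (limma adjusted p = 1.48e-08), or 3.33-fold lower. Here and below, ± gives limma's moderated SE, which draws mostly on the spread of other probes. Hsp90aa1, the inducible form of the cytosolic chaperone Hsp90, was at 12.00 and 11.75 without ActD and at 10.03 and 10.50 with it. Its log2 difference was -1.61 ± 0.14 (limma adjusted p = 1.72e-08). Tax1bp1, an autophagy receptor, was at 9.96 and 9.82 without and at 7.90 and 8.51 with ActD (-1.68 ± 0.16). Naa15, the ribosome-binding subunit of an amino-terminal acetyltransferase, was at 7.11 and 6.80 against 5.41 and 5.36.

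Of the other 8 of these transcripts, Sh3bgrl1 had the largest mean difference, -2.02 ± 0.21, with 7.70 and 7.21 without ActD against 5.34 and 5.52 with it, and was detected on 1 of the 2 arrays with ActD. Gpr22, an orphan G protein-coupled receptor, fell from 8.39 and 7.83 to 5.77 and 6.56, and Lpar4, a receptor for lysophosphatidic acid, from 7.25 and 6.60 to 4.97 and 5.35, detected on 1 of the 2 arrays with ActD. Exoc5, a subunit of the exocyst, which tethers vesicles to the plasma membrane, stood at 6.85 and 6.66 against 5.56 and 5.35. A further 4 transcripts were not detected on either array with ActD, so only a lower bound can be given, set by the dimmest detected probe of each array. The bound was at least 2.57-fold lower for Wwp1, a ubiquitin ligase, at least 1.75-fold for Etv1, an ETS transcription factor, at least 1.64-fold for Nr3c1, the glucocorticoid receptor, and at least 1.62-fold for Ifih1, a sensor of double-stranded RNA.

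**Figure D2:**
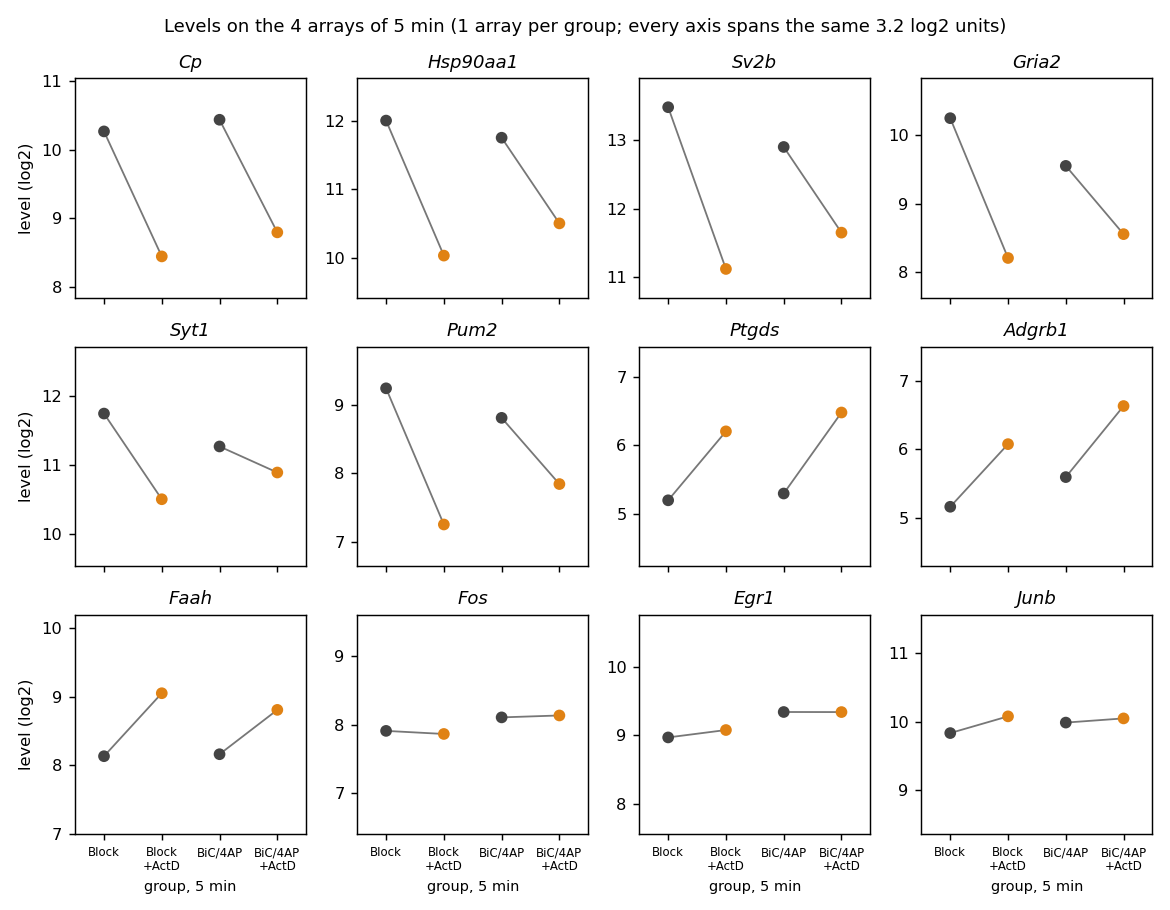
Normalized level (log2) of 12 transcripts on the 4 arrays of 5 min; each point is 1 array, grey without and orange with ActD, and lines join the arrays of a pair. Cp, Hsp90aa1, Sv2b, Gria2, Syt1 and Pum2 were lower with ActD in both pairs, Ptgds, Adgrb1 and Faah higher, while Fos, Egr1 and Junb differed less, by 0.25 at most (Junb in the Block pair).

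Promoters are shown to set a strongly lowered pair, Cp and the synaptic vesicle gene Sv2b, beside Ier2 and Dusp1. The latter are a pair of immediate early genes that were not called, and their levels are given further on. All were picked as examples and need not be typical. Sequences are from RefSeq (GRCr8), from 250 bases before to 50 bases after the start of each gene, on the gene's strand: Cp at chr2:104368420-104368719 (+), Sv2b at chr1:138562209-138562508 (-), Ier2 at chr19:40399123-40399422 (+) and Dusp1 at chr10:17184603-17184902 (+). Capitals mark the motif TATAAA on either strand, known as the TATA box, and the palindrome TGACGTCA, known as the cyclic AMP response element. In Cp the forward and the reverse match overlap.
Cp: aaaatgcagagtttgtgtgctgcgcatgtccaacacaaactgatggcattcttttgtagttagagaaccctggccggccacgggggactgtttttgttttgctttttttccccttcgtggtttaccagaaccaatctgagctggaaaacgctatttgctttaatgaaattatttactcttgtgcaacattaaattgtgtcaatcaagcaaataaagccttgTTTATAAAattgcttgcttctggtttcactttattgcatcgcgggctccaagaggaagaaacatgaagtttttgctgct
Sv2b: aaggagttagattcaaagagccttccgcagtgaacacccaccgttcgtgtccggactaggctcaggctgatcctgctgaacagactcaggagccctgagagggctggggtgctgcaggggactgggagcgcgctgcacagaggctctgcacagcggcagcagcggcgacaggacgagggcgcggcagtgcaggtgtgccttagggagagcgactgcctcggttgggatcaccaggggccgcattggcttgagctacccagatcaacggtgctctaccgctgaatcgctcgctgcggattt
Ier2: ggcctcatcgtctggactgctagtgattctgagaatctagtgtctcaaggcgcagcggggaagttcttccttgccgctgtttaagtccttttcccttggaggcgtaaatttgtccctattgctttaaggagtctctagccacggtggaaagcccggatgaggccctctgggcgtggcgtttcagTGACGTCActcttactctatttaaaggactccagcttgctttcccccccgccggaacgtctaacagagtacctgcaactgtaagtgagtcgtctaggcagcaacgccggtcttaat
Dusp1: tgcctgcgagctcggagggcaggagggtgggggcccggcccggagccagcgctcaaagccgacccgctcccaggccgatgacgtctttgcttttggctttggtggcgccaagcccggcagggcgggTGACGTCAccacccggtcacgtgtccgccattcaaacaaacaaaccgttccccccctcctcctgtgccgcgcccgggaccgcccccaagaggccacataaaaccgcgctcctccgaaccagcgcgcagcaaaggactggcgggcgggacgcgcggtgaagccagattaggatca
The first match began 29 bases before the start in Cp, 66 in Ier2 and 124 in Dusp1, and neither motif was found in the Sv2b window. Matching by symbol, 280 of the 326 genes lower by 1.5-fold in both pairs had a promoter in the table. TATA boxes were present in 7.14% of these, 7.30% of the 6190 tested genes with a promoter and 14.3% of all 27457 promoters, and response elements in 3.57%, 3.41% and 1.91%. Of 20 genes with a promoter in the list of immediate early genes 6 held a TATA box and 2 the response element. Dusp1 was listed with the MAP kinase phosphatases and is not counted among these.

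Transcripts for the handling of RNA were among those that fell. Of 51 splicing factors tested, 15 fell (29.4%, against 9.88% of all genes) and 0 rose, and the list's median difference was -0.24, against 0.08 over all tested genes. Luc7l3, a protein of the U1 snRNP, was at 10.55 and 10.26 without ActD and at 8.89 and 9.41 with it, a difference of -1.25 ± 0.16 (limma adjusted p = 5.79e-06). Son, which organizes nuclear speckles, was at 8.59 and 8.34 against 7.24 and 7.30 (-1.19 ± 0.17). The kinase Clk1, which phosphorylates SR proteins, was at 9.56 and 9.54 against 8.55 and 8.89. For each of these 3 both arrays with ActD lay below both without it. They were named for large differences in both pairs, so this largely follows from the choice. Rbm25 was not detected with ActD and was at least 1.55-fold lower.

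Among 32 genes of mRNA decay 8 fell (25.0%, against 9.88% of all genes) and 1 rose (3.12%, against 1.99%), with a median of -0.06. Pum2, an RNA-binding repressor that recruits deadenylases, fell from 9.24 and 8.81 to 7.25 and 7.84 (-1.48 ± 0.19, adjusted p = 8.29e-06). The helicase Ddx6, which promotes decapping, was at 9.99 and 10.12 without and at 9.08 and 9.43 with ActD, and the deadenylase Cnot7 at 9.91 and 9.78 against 9.06 and 9.14. Dis3, the catalytic subunit of the nuclear exosome, was not detected with ActD and was at least 1.77-fold lower. Exosc4, another exosome subunit, was the member that rose (0.40), a call lost with equal total intensity.

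Of 30 genes of RNA polymerase II and its elongation factors 6 fell (20%, against 9.88% of all genes) and 1 rose (3.33%, against 1.99%). Their median was 0.09. Of 32 genes of the nucleolus and RNA polymerase I 6 fell (18.8%) and 0 rose (median 0.15). Aff4, the scaffold of the super elongation complex, was at 6.06 on both arrays without ActD and at 4.61 and 5.28 with it, undetected on both, at least 1.65-fold lower. Med1, a Mediator subunit, Ccnh, a cyclin of TFIIH, and Tcea1, the elongation factor TFIIS, fell by 0.76, 0.49 and 0.63. Nelfb, a pausing factor, rose by 0.48, a call lost with equal total intensity. The nucleolar proteins Ncl (-0.85), Gnl3 (-0.71), Nop58 (-0.71), Npm1 (-0.64) and Utp14a (-0.57) fell.

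Some transcripts of synapses and axons fell too. Among 35 genes of synaptic vesicles and release 8 fell (22.9%, against 9.88% of all genes) and 0 rose, but the list's median was 0.06, with 0.0043 in the Block pair and 0.23 in the BiC/4AP pair, and 19 of the 35 lay above 0. Sv2b, a vesicle glycoprotein, gave a bright signal, at 13.48 and 12.90 without ActD against 11.12 and 11.65 with it (-1.81 ± 0.15, limma adjusted p = 1.48e-08). Ppfia2, an active zone scaffold, fell from 7.43 and 6.91 to 5.67 and 5.95. Slc17a6, a vesicular glutamate transporter, fell from 9.33 and 8.81 to 7.81 and 8.15, and Synj1, a phosphatase of vesicle recycling, by 0.79. In all 4 cases the groups did not overlap, but these genes were named for large differences in both pairs, so this largely follows from the choice.

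Of 26 postsynaptic genes 5 fell (19.2%, against 9.88% of all genes) and 0 rose (median -0.12). Gria2, the AMPA receptor subunit that limits calcium entry, was at 10.25 and 9.55 without ActD and at 8.21 and 8.56 with it (-1.52 ± 0.18, adjusted p = 2.94e-06), and the GABA-A receptor subunit Gabrb1 at 9.24 and 8.91 against 7.85 and 8.06. The scaffold Cnksr2 fell by 0.75. Dlg1, a synaptic scaffold undetected with ActD, was at least 1.42-fold lower, and its call was lost with equal total intensity. Of 33 axon and projection genes 8 fell (24.2%) and 0 rose, with a median of -0.12. Rtn4, an inhibitor of neurite growth, fell from 13.09 and 12.80 to 12.06 and 12.25, the ephrin receptor Epha4 from 10.37 and 10.16 to 9.23 and 9.65, and the neurotrophin receptor Ntrk3 by 0.80. The median of the axon list was -0.38 in the Block pair and 0.04 in the BiC/4AP pair, so it did not hold its sign in both.

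Markers placed these cultures as neurons on glia. The neuronal transcript Stmn2 stood between 13.27 and 13.76 over the 4 arrays, and the glial Gfap between 13.77 and 13.93. Among 11 neuron markers tested 3 fell (27.3%, against 9.88% of all genes), Syt1 (-0.81), Snap25 (-0.79) and Map2 (-0.63), and 0 rose. The call for Map2 was lost with equal total intensity. Syt1, the calcium sensor of transmitter release, was at 11.75 and 11.27 without ActD and at 10.50 and 10.89 with it. Rbfox3 was on the array but not tested because it was detected on too few arrays. The median of the list was -0.49 in the Block pair and 0.04 in the BiC/4AP pair, and its summed level (log2) was 14.94 and 14.65 without ActD and 14.57 and 14.72 with it, so the groups overlapped. In bulk RNA, fewer cells of a type and less RNA per cell cannot be told apart.

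Of 15 astrocyte markers 4 fell (26.7%, against 9.88% of all genes) and 0 rose, although the median was 0.14. Aqp4, the astrocyte water channel, fell from 8.60 and 8.27 to 7.17 and 7.27, and the bicarbonate transporter Slc4a4 from 8.26 and 7.57 to 6.48 and 7.17. The connexin Gja1 (-0.41) and the glutamate transporter Slc1a3 (-0.29) fell less. With equal medians the calls for both were lost, and with equal total intensity that for Slc1a3. The summed level was 16.50 and 16.57 without and 16.46 and 16.55 with ActD. Decreases thus occurred in neuronal and in astrocytic transcripts within these arrays, while the sums of both lists overlapped between groups.

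Among 11 microglia markers 0 passed limma in either direction. Their median was 0.65 in the Block pair and -0.26 in the BiC/4AP pair, and their summed level was 10.49 (Block), 11.05 (Block+ActD), 10.95 (BiC/4AP) and 10.55 (BiC/4AP+ActD). Itgam, Cx3cr1, C1qc, Ptprc, Cd53 and P2ry12 were on the array but not tested, being detected on too few arrays. Of 9 oligodendrocyte lineage markers 1 fell (11.1%, against 9.88% of all genes), Ugt8 (-0.59). Their summed levels were 13.99 and 13.97 without and 13.89 and 14.01 with ActD. Of 11 fibroblast and vessel markers 1 fell (9.09%), the proteoglycan Lum, at least 1.66-fold lower. Their sums were 14.67 and 14.62 without ActD against 14.61 and 14.49 with it. Of 15 interneuron markers 1 rose (6.67%, against 1.99% of all genes), the neuropeptide gene Cck (0.39), from 11.17 and 11.16 to 11.54 and 11.57. Its call was lost with equal total intensity. The list had sums of 13.49 and 13.36 without ActD against 13.41 and 13.51 with it. The part of these cell types in the ActD differences was not tested.

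The upregulated side was smaller and shallower, and its rises are relative to the other transcripts of an array. Ptgds, the prostaglandin D synthase, was at 5.20 and 5.30 without ActD and at 6.21 and 6.48 with it, a difference of 1.09 ± 0.21 (limma adjusted p = 8.06e-04). Adgrb1, an adhesion G protein-coupled receptor, was at 5.16 and 5.59 against 6.07 and 6.63 (0.98 ± 0.21), and was detected on 1 of the 2 arrays without ActD. Both lay at low levels. Faah, which hydrolyses the endocannabinoid anandamide, was brighter, at 8.13 and 8.16 without and at 9.05 and 8.81 with ActD (0.78 ± 0.16), as was Nudt14, a hydrolase of nucleotide sugars, at 8.57 and 8.58 against 9.34 and 9.22 (0.71 ± 0.15).

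The other 8 of the 12 highest were the Golgi SNARE Bet1l (0.75), the sulfotransferase Chst8 (0.71), Thap3 (0.68), the calcium-binding Ocm (0.66) and, undetected on both arrays without ActD, Zfyve19 (at least 1.5-fold higher), Abcc10 (at least 1.39-fold), Tmem186 (at least 1.3-fold) and Det1 (at least 1.17-fold). Bet1l, Chst8, Thap3 and Ocm did not pass at equal total intensity (adjusted p = 0.059, 0.082, 0.051 and 0.10), though they kept their direction.

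Immediate early genes are induced in neurons within minutes of firing. Fos was at 7.91 and 8.11 without ActD and at 7.87 and 8.14 with it, a difference of -0.01 ± 0.17 (limma adjusted p = 0.98). Egr1, a zinc finger transcription factor, was at 8.97 and 9.34 against 9.08 and 9.34, and Junb at 9.84 and 9.99 against 10.08 and 10.05. The groups overlapped for Fos and Egr1, whereas for Junb both arrays with ActD lay above those without, by a mean of 0.15 ± 0.13 (adjusted p = 0.47). Ier2, with the response element shown above, was at 7.56 and 7.67 without and at 7.79 and 7.74 with ActD, and Dusp1, a MAP kinase phosphatase, at 10.13 and 10.29 against 10.29 and 10.18. Differences of Jun (-0.03), Egr2 (0.15), Arc (-0.06), Nr4a1 (-0.02) and Nr4a2 (-0.12) did not pass either. Egr4 was at 6.23 and 6.54 without ActD and 6.83 and 6.95 with it, 0.50 ± 0.20 (adjusted p = 0.097). Egr3 and Npas4 were on the array but not tested, and Fosb was not named on any probe. A p that misses the threshold does not show that these levels were equal.

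Of the 26 immediate early genes tested, 4 fell (15.4%, against 9.88% of all genes) and 0 rose, with a median of 0.06 that became -0.04 with equal total intensity. The 4 were Bdnf, Ptgs2, Nr4a3 and Rgs2. Bdnf, the neurotrophin, was at 8.44 and 7.90 without ActD and at 7.09 and 7.38 with it (-0.94 ± 0.19). Ptgs2, the inducible cyclooxygenase, was at 6.99 and 7.13 against 6.11 and 6.22 (-0.90 ± 0.20), with differences of nearly the same size in both pairs. The orphan nuclear receptor Nr4a3 fell by 0.92 in the Block pair, from 10.75 to 9.83, but by 0.18 in the BiC/4AP pair, from 10.43 to 10.25. Rgs2, a regulator of G protein signalling, fell by 0.42, a call lost with equal medians.

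Of 38 short-lived regulators 5 fell (13.2%, against 9.88% of all genes) and 1 rose (2.63%, against 1.99%), with a median of -0.04. Nedd9, an adhesion scaffold, fell from 9.04 and 9.11 to 8.22 and 8.52, Klf9, a glucocorticoid-induced transcription factor, from 9.25 and 9.23 to 8.41 and 8.66, and the cyclin Ccnl1 from 8.01 and 7.72 to 6.63 and 7.18. Pim3, a survival kinase, rose by 0.62, a call lost with equal total intensity. Myc (-0.13), Id1 (0.21), Id3 (0.36) and Klf4 (-0.19) did not pass, and Id2 fell by 0.31, a call lost under both other scalings. Of 12 MAP kinase phosphatases and feedback inhibitors 1 fell (8.33%), Spred1 (-0.77), and 0 rose (median 0.04), with Dusp6 at 0.08 and Dusp5 at 0.23. Of 19 cytokines and acute phase genes 2 fell (10.5%), Cp and the adhesion molecule Vcam1 (-0.69), and 0 rose (median 0.01). The shares that fell in these last 2 lists were near that of all genes.

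Genes of ribosomes and mitochondria lay near the median of all genes with quantile normalization, but above it under the other scalings. With equal total intensity the medians of the 2 lists were 0.132 and 0.126, against 0.0148 over all genes. With equal medians they were 0.29 and 0.307, against 0.154. None of 61 ribosomal protein genes passed limma in either direction, and their differences ran from -0.26 (Rps3a) to 0.35 (Rpl22l1), with a median of 0.09. Of 58 genes of oxidative phosphorylation 1 rose (1.72%, against 1.99% of all genes), Atp5pd (0.40), and 0 fell (median 0.13). With equal medians 6 ribosomal genes, among them Rps15 and Rpl35a, and 9 genes of oxidative phosphorylation, among them Sdhb, Cox7a2l, Cox6a2 and Atp5mc3, were called higher, and with equal total intensity 0 and 0, so these calls depended on the scaling. Among 8 histone genes 0 passed (median 0.06).

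Of 103 zinc finger factors 20 fell (19.4%, against 9.88% of all genes) and 1 rose (0.971%, against 1.99%), with a median of 0.02. With equal total intensity 17 fell and 0 rose. Zfp68 fell from 8.85 and 8.63 to 7.33 and 7.45 (-1.35 ± 0.17), Zfp148 from 8.61 and 7.95 to 6.39 and 7.06, and the methyl-CpG binding factor Zbtb33 from 7.92 and 7.77 to 6.11 and 6.72. Of 31 heat shock and unfolded protein response genes 5 fell (16.1%) and 1 rose (3.23%), with a median of 0.05. Besides Hsp90aa1 the chaperones Hsp90b1 (-0.67), Canx (-0.63), Hspd1 (-0.56) and Dnaja1 (-0.34) fell, and Sdf2l1 (0.69), of the endoplasmic reticulum, rose, a call lost with equal total intensity. The call for Hspd1 was lost with equal medians and that for Dnaja1 under both other scalings. Of 13 p53 targets 1 fell and 1 rose (7.69% each). Ccng1 fell from 11.81 and 11.62 to 10.50 and 10.80, and Phlda3 rose (0.50), while Mdm2 was at -0.29 and did not pass; the median was -0.04. Of 20 Nrf2 targets 2 fell (10%) and 1 rose (5%), with a median of -0.01. Cat (-0.92), the peroxide-degrading catalase, and Gclc (-0.50) fell and Gstm1 (0.39) rose. Of 19 genes listed under cholesterol synthesis and uptake 2 fell (10.5%) and 0 rose, with a median of -0.03. The 2 were Idi1 (-0.60) and Scd (-0.45), a fatty acid desaturase whose call was lost with equal medians.

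List medians near 0 moved with the processing. With equal total intensity, where the median of all genes was 0.01, those of immediate early genes (-0.04), MAP kinase phosphatases (-0.05), heat shock genes (-0.02), zinc finger factors (-0.06) and RNA polymerase II genes (-0.02) turned negative and that of Nrf2 targets (0.03) positive. With equal medians, where it was 0.15, those of short-lived regulators (0.0048), axon genes (0.01), Nrf2 targets (0.21), cholesterol genes (0.17) and interneuron markers (0.02) turned positive. All 9 genes called higher within the lists lost the call with equal total intensity, and 9 of 9 kept it with equal medians.

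**Figure D3:**
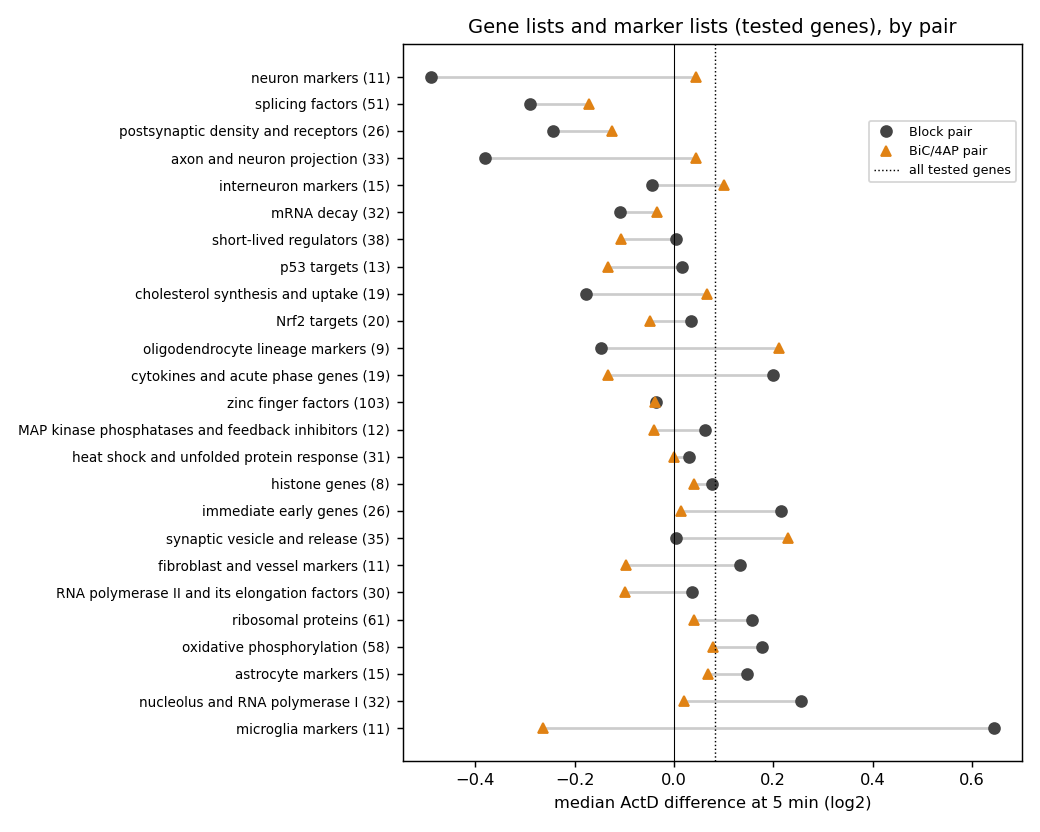
Median ActD difference (log2) of each of 25 lists at 5 min, with the number of tested genes in brackets; circles are the Block pair, triangles the BiC/4AP pair, and the dotted line is the median of all tested genes (0.08). Splicing factors lay below it in both pairs, and neuron markers, axon genes and microglia markers were among the lists with opposite signs in the pairs.

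The genes that were lower with ActD had longer spans than tested genes at large. Gene span, the distance from start to end of the gene in RefSeq (GRCr8), introns included, was a median of 50.4 kb for the 326 genes lower by 1.5-fold in both pairs, 14.7 kb for the 18 higher genes with a span and 20.7 kb over all tested genes. When the 7391 tested genes with a span were split by it into 5 groups of equal size, the share called lower was 2.16% in the group of shortest genes, 5.01%, 7.71% and 14.8% in the next groups, and 19.6% in the longest, of 60.6 kb and more. The share called higher ran the other way, from 4.67% to 0.406%. The median difference went from 0.27 to -0.18 in the Block pair and from 0.10 to -0.08 in the BiC/4AP pair. Spearman's rho with span was -0.39 and -0.24 over genes, which share arrays and are not independent, so no p is given. It was -0.06 and 0.06 in the Block and BiC/4AP pairs of 30 min, and -0.30 and 0.17 in those of 60 min. It had exceptions at 5 min, since Hsp90aa1 (6.08 kb) and Ccng1 (6.37 kb) were short genes that fell, and Chst8 (142 kb) was a long one that rose.

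Level moved with span as well, from a median of 8.28 in the shortest to 7.18 in the longest group, and the share called lower, from the dimmest to the brightest of 5 groups by level, was 3.17%, 9.46%, 9.93%, 14.1% and 12.7%. The part of level in the relation with span was not tested. The GC content of the promoters was near the same for lower, higher and all genes (medians 61.0%, 61.3% and 60.7%). The part of transcript length and RNA quality was not tested.

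**Figure D4:**
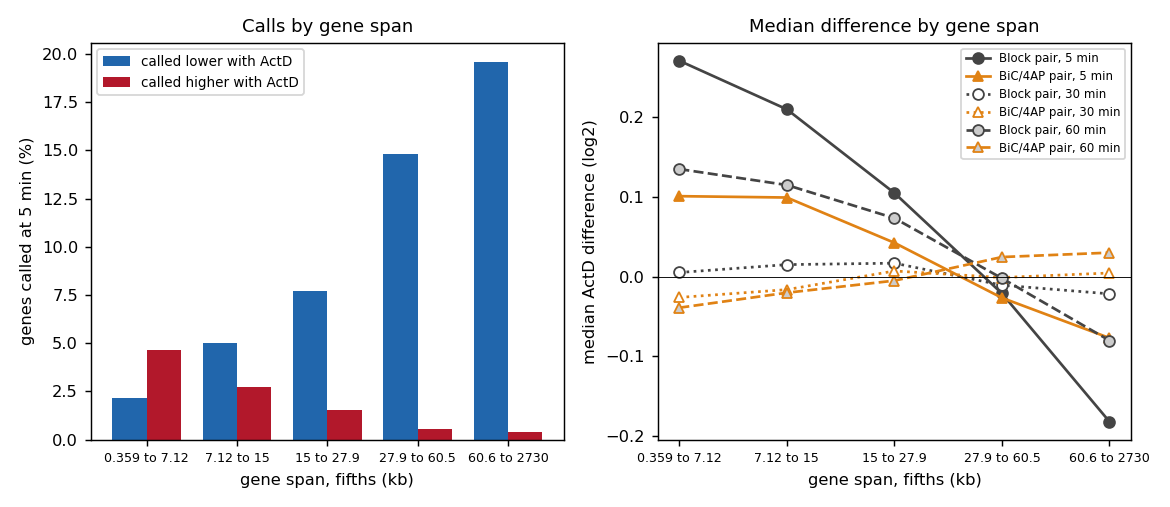
Left, share of tested genes (%) called lower (blue) or higher (red) with ActD at 5 min in 5 groups by gene span (kb); right, median ActD difference (log2) of the same groups in each pair and harvest. The share called lower climbs from 2.16% to 19.6%, and the steepest slope is that of the Block pair at 5 min.

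The differences of 5 min were then followed in the arrays of 30 and 60 min. The ActD effect differed from the mean of the later harvests for 106 probes at a limma adjusted p of 0.05, 104 lower (0.992% of those tested) and 2 higher (0.0191%), and all 106 had been called in the same direction at 5 min. Cp differed by -1.59 (adjusted p = 0.036), with ActD differences of -0.41 at 30 and 0.13 at 60 min, and Hsp90aa1 by -1.54, with -0.05 and -0.08. Tax1bp1 (-1.62), Gpr22 (-1.92), Nr3c1 (-1.43, from signals undetected with ActD at 5 min), Zfp68 (-1.20) and Son (-1.06) were also among the 106, and Ptgds (1.22) was 1 of the 2 higher. Sv2b, at -0.41 and -0.98 in the later harvests, and Gria2, at -0.25 and -0.51, were not, with adjusted p of 0.24 and 0.16. The count was unstable, with 0 probes called against 30 min alone or against 60 min alone, 0 without the Block or the Block+ActD array of 5 min or any 1 array of 30 min, 27 without either BiC/4AP array of 60 min, 491 and 489 without the BiC/4AP or BiC/4AP+ActD array of 5 min, and 943 and 938 without the Block or Block+ActD array of 60 min.

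The pairs parted at later harvests. Of the 473 lower probes, 368 were lower in the Block pair of 30 min and 461 in that of 60 min, with medians of -0.13 and -0.53, but 199 and 74 in the BiC/4AP pairs, with medians of 0.03 and 0.15. Over all tested probes 48.8% and 41.6% were lower in these Block pairs and 50.9% and 51.2% in the BiC/4AP pairs. The count of 1.5-fold in both pairs gave 1 lower and 1 higher probe at 30 min and 1 and 0 at 60 min. In fits of a single harvest 0 probes passed limma at 30 min and 0 at 60 min (272 and 347 at an unadjusted p under 0.05).

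The median level of the 473 probes was 7.67 on the Block array and 7.52 on the BiC/4AP array of 5 min, 6.34 and 6.65 on the arrays with ActD, and from 7.75 to 8.44 on the 8 later arrays, with and without ActD. Thus all 4 arrays of 5 min lay below every later array for these probes. Those with ActD lay furthest, but the probes were chosen for low values on these arrays, so that position was set by the choice. The 32 higher probes, chosen in the same way for high values with ActD, stood at 6.04 and 5.94 without it and at 6.80 and 6.66 with it, against 5.69 to 6.07 later. Time and array cannot be told apart, since each harvest of each combination was measured once.

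**Figure D5:**
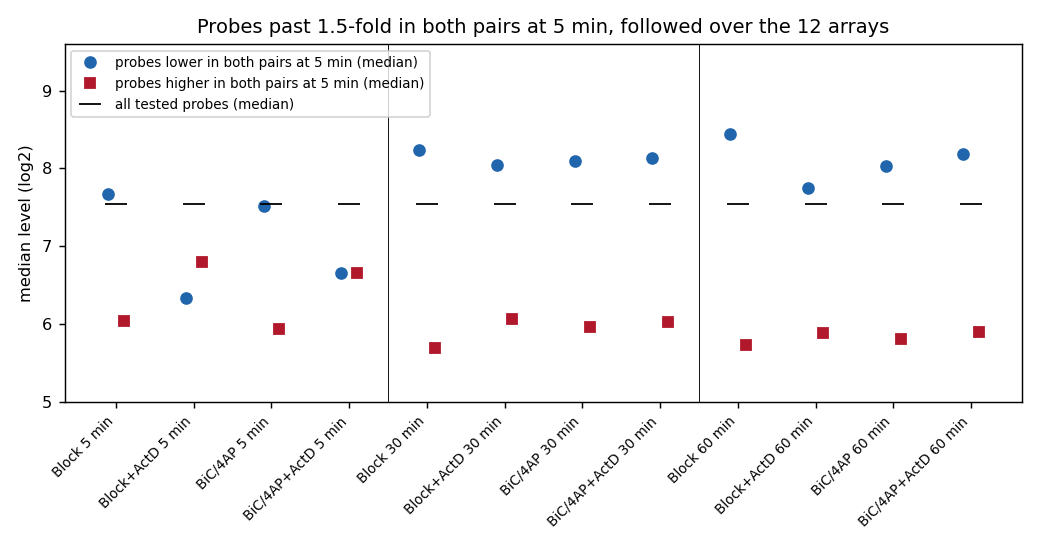
Median normalized level (log2) on each of the 12 arrays of the 473 probes lower (circles) and the 32 probes higher (squares) by 1.5-fold in both pairs at 5 min, with the median of all tested probes (dashes, 7.54). The lower set is lowest on the arrays Block+ActD (6.34) and BiC/4AP+ActD (6.65) of 5 min, whose low values were used to choose it.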

How the data were processed

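The authors labelled RNA with biotin and hybridized it to Illumina RatRef-12 bead arrays, read with a BeadStation and BeadStudio, in a version not given in the sources used here. The deposited intensity values are linear mean signals of the beads of 22523 probes, neither background-subtracted nor scaled. A deposited detection p-value sets each signal against the negative controls of its array. A second deposited table of intensity values held the same signals times 1 factor per array, giving equal totals, and served as an alternative.

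Symbols of the platform annotation named 13793 probes, 0 probes had several symbols and 8730 had none; 13752 matched GRCr8. For all 12 arrays together, limma's neqc (limma 3.58.1, R 4.3.3, offset 16) removed background by means of the detection p-values, applied quantile normalization and took log2. Probes entered the tests when detected, at p under 0.01, on 2 or more of the 4 arrays of 5 min (10485, of which 7563 were named). Where a gene had several probes the brightest was used; of 151 such genes, 21 had a probe called lower, 8 of them on all probes, and 7 a probe called higher, 2 of them on all probes; 0 had probes called in opposite directions.

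The ActD effect was fitted with lmFit and eBayes (variance trend) on the 4 arrays with stimulus as a block. This left 1 residual degree of freedom, beside 25.6 prior degrees of freedom that eBayes drew from all tested probes. The p-values were adjusted by Benjamini-Hochberg over all tested probes at 0.05. The contrast with later harvests used all 12 arrays. Fits with 1 array left out used the rest of these 12, since the 4 arrays less 1 leave no residual degree of freedom. The scripts were tested on simulated data. Members and lists (19 gene lists and 6 marker lists, all given in the report) were chosen with earlier results of these data known. Genes were named by rule: the 12 lowest and 12 highest by the smaller of the pair differences, detected on both arrays of the higher group, up to 4 per list by the same order, and a fixed set of immediate early and short-lived genes. Other list members were named because they passed the test, and markers because they define a cell type. The brightness of a probe over background and the number of arrays limit the precision. Alternatives covered scaling, background offset, detection filter, stimulus block, variance model, single arrays and the z-fold of the methods. Total-intensity scaling was applied to signals without background correction.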

Additional observations from a re-analysis of the deposited data

Results flagged for a closer look

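The ActD effect at 5 min differed from that of the later harvests, by limma's test of the difference, for 106 probes. As given in the report, this count went to 0 when 1 Block array of 5 min or 1 array of 30 min was left out.

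Microglia markers moved in opposite directions in the pairs of 5 min, with a median of 0.645 in the Block pair and -0.263 in the BiC/4AP pair. This difference was not tested, and 0 of the 11 markers passed limma.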

How the results depend on the processing

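No paired analysis was possible because all arrays carry the single replicate number 3, so the groups share fewer than 2 numbers and the only pairing is by stimulus. Of the 1257 called probes 1256 or more kept their direction in every alternative limma fit that tested them all. For many of these fits that was set in advance. Nearly all calls had the same direction in both pairs, and a fit without 1 array of 5 min rests on 1 of these pairs. Fits that changed only the stimulus block or the variance model kept the same difference. The count of calls was 775 with no detection filter, 628 with no variance trend and 635 by the methods' z-fold of 1.4 in both pairs, and from 0 to 1008 when 1 array was left out. Lower calls were 588 with no variance trend and 620 by z-fold, and from 0 to 880 when 1 array was left out. Higher calls were 37 with total-intensity scaling and with the series value table, 659 with median scaling, 48 with no detection filter, 423 with no stimulus block, 40 with no variance trend and 15 by z-fold, and from 0 to 128 when 1 array was left out. Probes past 1.5-fold in both pairs numbered 253 lower and 6 higher at an offset of 50, and 1 higher with total-intensity scaling and the value table, 74 higher with median scaling, 986 and 349 at a threshold of 1.3, and 66 and 1 at 2. The contrast with later harvests gave 262 probes with total-intensity and 315 with median scaling, 0 against 30 min alone and 0 against 60 min alone, and from 0 to 943 when 1 array was left out. With total-intensity scaling 6 of 25 list medians changed sign and with median scaling 5, all named in the report. Of medians of at least 0.1 in size, those that changed sign in any setting were those of axon genes, 0.0099 with median scaling and 0.0444 in the BiC/4AP pair alone, neuron markers, 0.0444 in that pair, and microglia markers, -0.263 in that pair. Of 139 named genes 84 were called. None of these changed direction, but most were named for the same direction in both pairs, so this largely follows from the choice. The cause was not tested for any of these changes. Dim probes have only bounds, and 1 array per combination limits the precision.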
